A study of Manihot esculenta with 9 samples.

Results

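Cellulose synthases, fasciclin-like arabinogalactan proteins and the COBRA proteins build and organise the cellulose of plant cell walls or sit at its surface. Their transcripts were measured by RNA-seq in mature leaves of wild-type cassava (*Manihot esculenta*). The members are the genes of the authors' deposited table whose description holds the words "cellulose synth", "fasciclin", "arabinogalactan" or "COBRA" in any case, and 112 of 33033 genes matched. By these descriptions and the nearest Arabidopsis gene that the table lists, they comprise 14 cellulose synthases (CESA), 21 cellulose synthase-like genes (CSL), 12 *COBRA* and *COBRA*-like genes (COBL), 40 fasciclin-like arabinogalactan proteins (FLA) and 25 other arabinogalactan proteins (AGP). A name such as *CESA3* below means that this is the nearest Arabidopsis gene of the cassava gene given with it. For descriptions that carry no number, among them those of the *CESA3*, *CESA7*, *CESA8*, *COBL4*, *COBRA* and *SOS5* matches, the name was taken from the Arabidopsis gene ID in the table.

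Cellulose is made at the plasma membrane by complexes that combine different CESA proteins. In Arabidopsis, CESA1, CESA3 and the CESA6 group serve the primary wall of growing cells, whereas CESA4, CESA7 and CESA8 serve the secondary wall that is laid down after growth, above all in xylem and fibres. CSL proteins are relatives of CESA, of which the A group makes mannans and the D group works in growing and dividing cells. COBRA, a protein tied to the outer face of the membrane by a lipid anchor, is needed for the ordered deposition of cellulose. AGPs are heavily glycosylated, hydroxyproline-rich wall and membrane proteins, and FLAs carry in addition the fasciclin domain known from cell adhesion. In Arabidopsis, FLA11 and FLA12 are found in stems and are linked to secondary walls, and SOS5, also called FLA4, is named for its salt-sensitive mutant.

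The seedlings were 60 days old. They grew in MS medium alone (MS control), in MS medium with 50 μmol/L ABA, the hormone of the water stress response, or in MS medium with 7% PEG, an osmotic agent, both for 48 h. Each group had 3 libraries, 9 in all. The genotype was TM60444 and the replicates were biological ones, per the study's methods. The sources used here do not say if every library came from its own plant, so p-values measure the spread between these libraries only. Whole leaves were sequenced, so fewer cells of a type and less RNA per cell cannot be told apart.

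Total counts were 13923803 to 16378389 in the MS control, 14850183 to 15690202 under ABA and 15847859 to 17108746 under PEG. FPKM values, read numbers scaled by gene length and library size, are the authors' own, and the underlying counts of 23984 genes were tested by the quasi-likelihood method of edgeR. The tests used a further scaling of libraries (TMM) that single and summed FPKM values lack. Its factors were 0.9797 to 0.9892 in the MS control, 0.9415 to 0.9419 under ABA and 1.076 to 1.082 under PEG. FPKM and fold changes can thus differ in direction. Manes.12G146600 had 29.6 FPKM under PEG and 27.9 FPKM under ABA, yet a log2 fold change of -0.11 for PEG against ABA. "Rose" and "fell" are used of genes with a Benjamini-Hochberg adjusted p under 0.05. Replicates lay close together (median chi-square between replicates 0.662 to 0.843, against 0.455 from sampling alone), so small differences passed. Markers of the leaf mesophyll, 19 genes for light-harvesting proteins, were all detected in these leaves. Their summed level was 752 to 792 FPKM in the MS control, 415 to 434 FPKM under ABA and 2300 to 2320 FPKM under PEG, with 18 of 19 lower under ABA and 19 of 19 higher under PEG. A list for dividing cells, taken by the word cyclin in the descriptions, also holds cycling DOF factors, cyclin-dependent kinases outside the B type and a family of kinase inhibitors, so it is not a pure measure of division. Its genes were higher under ABA in 42 and under PEG in 53 of 71 tested, and lower in 8 and 9. Their summed level, over 78 genes with reads, was 495 to 503 FPKM in the MS control, 587 to 594 FPKM under ABA and 742 to 750 FPKM under PEG. These markers moved with the groups in every comparison given below, and their part in the results was not tested. Of 48 tested genes for late embryogenesis abundant proteins and dehydrins, which accumulate in cells that lose water, 17 were higher and 16 lower under ABA, and 8 were higher and 33 lower under PEG. The ABA shares, 35.4% and 33.3%, were near the 32.9% and 33.4% of all genes. The PEG shares were 16.7% and 68.8%, beside 35.6% and 35.1%. Their summed level, over 82 genes, was 1460 to 1860 FPKM in the MS control, 2280 to 2350 FPKM under ABA and 1090 FPKM under PEG. Directions follow the labels of the libraries, and whether the labels of the MS control and PEG libraries were exchanged was not tested. With such an exchange every value of PEG against the MS control would turn round, and the value of ABA against the MS control would become minus the value of PEG against ABA.

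Most members were detected in the leaves, but few were abundant. Of the 112 members, 103 had a read in at least 1 library and 73 had an FPKM value above 0 in all 9 libraries. A mean of at least 1 FPKM in a group was reached by 68 members, at least 10 FPKM by 37 and at least 100 FPKM by 3, which are Manes.05G202900 (*AGP14*), Manes.07G035500 (*AGP1*) and Manes.02G007500 (*CSLG3*). All 14 CESA members had a value above 0 in every library, against 17 of 40 FLA members. The filter on low counts kept 74 members, of which 6 would not have passed without the group, or the pair of groups, in which they were high, and the 38 others were too low to test. Summed over all members, MS control libraries had 1860 ± 5.41 FPKM (mean ± SD, n = 3), beside 1370 ± 19.7 FPKM under ABA and 1690 ± 14.2 FPKM under PEG. The arabinogalactan proteins outside the FLA class carried 693, 541 and 690 FPKM of this, and the CSL class 590, 466 and 440 FPKM.

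Under ABA 21 of the 74 tested members rose and 33 fell, 73.0% in all, where 66.3% of all genes tested changed, 32.9% higher and 33.4% lower. Under PEG 34 members rose and 26 fell, 81.1% in all, where 70.7% of all genes changed, 35.6% higher and 35.1% lower. Between the treatments 40 members were higher under PEG than under ABA and 17 were lower, 77.0% in all, where 74.7% of all genes differed, 39.1% higher and 35.6% lower. Of changes of at least 2-fold, 8 rises and 12 falls were found under ABA (10.6% and 8.79% of all genes), 23 and 10 under PEG (12.4% and 9.72%), and 25 and 6 for PEG against ABA (16.0% and 12.9%). The median log2 fold change of the members was -0.19 under ABA, 0.26 under PEG and 0.38 for PEG against ABA, beside 0.00, 0.00 and 0.05 for all genes tested. Groups of FPKM values did not overlap for 57, 63 and 62 of the 74 members in these comparisons, and for 70.4%, 74.7% and 79.1% of all genes tested. The exact permutation test of 3 libraries against 3 cannot go below p = 0.1, the value of each pair of groups that do not overlap. The direction went with the expression level. Of the 39 members with a mean of at least 5 FPKM, 14 rose and 21 fell under PEG, with a median log2 fold change of -0.47, whereas of the 35 below it 20 rose and 5 fell, with a median of 0.95. All members that passed the filter on low counts only through the group or groups in which they were high are among these 35. For such members the filter favoured the direction, so the counts below 5 FPKM are a description. All genes split the same way, with 32.2% rising and 42.1% falling at 5 FPKM or more, and 42.7% rising and 20.5% falling below.

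**Figure D1:**
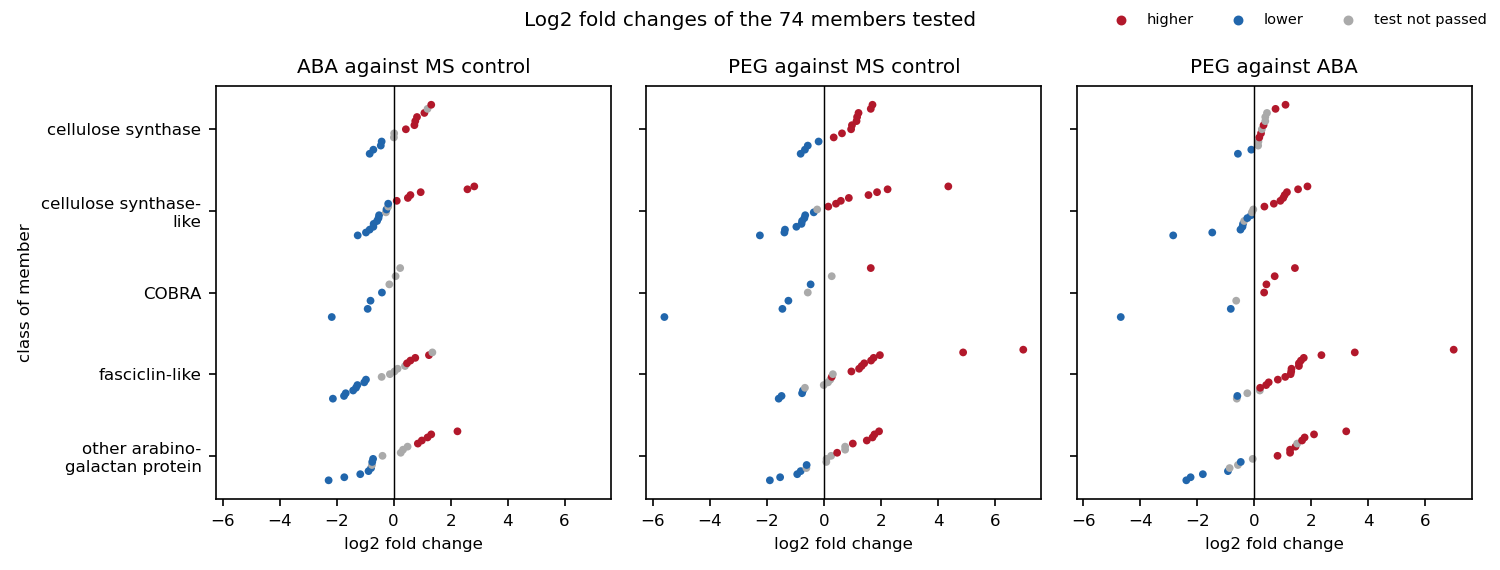
Log2 fold changes of the 74 tested members from edgeR, by class, for ABA and PEG against the MS control and for PEG against ABA. Each point is 1 cassava gene, coloured by whether its adjusted p was under 0.05. The CESA points under PEG all passed the test, with 9 to the right of 0 and 4 to the left, and the 2 FLA points farthest to the right belong to Manes.11G143200, which had no read in the MS control, and Manes.04G023000, which had 1, so that their fitted values depend on the prior count.

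The primary wall cellulose synthases made up nearly all CESA expression in these leaves, and the most abundant copies of *CESA3* and *CESA6* were lower after both treatments. Summed over the 8 members matched to *CESA1*, *CESA3*, *CESA6* and *CESA9*, the level was 255 ± 2.19 FPKM (SD, n = 3) in the MS control, 180 ± 0.554 FPKM under ABA and 211 ± 2.54 FPKM under PEG. Under ABA 2 of the 8 rose and 4 fell, and under PEG 4 rose and 4 fell. Of all genes tested 32.9% rose and 33.4% fell under ABA, and 35.6% rose and 35.1% fell under PEG. The leading member, Manes.10G142600 (*CESA3*; chromosome 10, 25466068 to 25473831), was at 91.5, 95.4 and 94.3 FPKM in the MS control libraries, 50.1, 50.3 and 49.8 FPKM under ABA and 65.0, 64.2 and 65.2 FPKM under PEG. The ABA libraries were lowest, the PEG libraries lay between, and no groups overlapped. It fell by 0.84 under ABA on the log2 scale (standard error, SE, 0.03, adjusted p = 1.13e-10) and by 0.67 under PEG (standard error 0.03, adjusted p = 7.02e-10). Its share of all CESA FPKM was 36.3 ± 1.04% (SD, n = 3) in MS control libraries, 27.0 ± 0.0623% under ABA and 29.6 ± 0.291% under PEG.

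Manes.16G120400 (*CESA1*; chromosome 16, 27314682 to 27322493) was at 56.5, 54.7 and 58.5 FPKM in the MS control, 56.3, 53.7 and 53.1 FPKM under ABA and 42.8, 40.9 and 41.2 FPKM under PEG. Its MS control and ABA libraries overlapped, with a log2 fold change of 0.01 (adjusted p = 0.877), and all PEG libraries lay below both. It fell by 0.57 under PEG on the log2 scale (SE 0.03, adjusted p = 3.5e-08). Under ABA this gene, not the *CESA3* match, held the largest share of CESA FPKM, 29.4 ± 0.993% (SD, n = 3). The second *CESA1* match, Manes.03G016500, was at 18.9, 17.7 and 17.8 FPKM in the MS control, 16.8, 17.6 and 18.3 FPKM under ABA and 25.2, 26.2 and 24.2 FPKM under PEG. It stood above the other groups in all 3 PEG libraries, at a log2 fold change of 0.34 (adjusted p = 3.36e-05).

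The 3 *CESA6* matches fell together under ABA, by 0.42 to 0.71 on the log2 scale, and differed under PEG. Manes.12G146600, the most abundant, was at 48.0, 46.7 and 48.5 FPKM in the MS control, 27.5, 28.5 and 27.6 FPKM under ABA and 29.4, 30.4 and 29.1 FPKM under PEG. Both treatments were far below the MS control, with falls of 0.71 and 0.82 on the log2 scale (adjusted p = 2.67e-09 and 6.14e-10). Manes.05G113400 was at 10.9, 10.7 and 9.68 FPKM in the MS control, 7.15, 7.21 and 7.46 FPKM under ABA and 18.2, 17.1 and 17.8 FPKM under PEG. The groups did not overlap and the MS control lay in the middle, with log2 fold changes of -0.45 (adjusted p = 1.29e-05) under ABA and 0.63 (adjusted p = 4.62e-07) under PEG. Of Manes.12G148100, the fall of 0.19 under PEG (adjusted p = 0.0123) was lost with scaling by library size alone (-0.05), over genes of at least 5 FPKM (-0.11) and without PEG replicate 2 (-0.15, adjusted p = 0.053).

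The minor copies of *CESA3* and *CESA9* rose. Manes.09G023700, the second *CESA3* match, was at 2.7, 2.49 and 2.9 FPKM in the MS control, 3.01, 3.77 and 3.62 FPKM under ABA and 6.78, 6.18 and 6.92 FPKM under PEG. It rose by 0.43 on the log2 scale under ABA (adjusted p = 0.00317) and by 1.16 under PEG (adjusted p = 6.85e-07). Manes.02G181100, matched to *CESA9*, which acts in Arabidopsis seed coats, rose from 24 reads over the 3 MS control libraries to 58 under ABA and 95 under PEG, with log2 fold changes of 1.32 (adjusted p = 0.00414) and 1.70 (adjusted p = 0.000366).

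The secondary wall cellulose synthases were scarce in these leaves and higher after both treatments. The summed level of the 6 members matched to *CESA4*, *CESA7* and *CESA8* was 3.35 ± 0.272 FPKM (SD, n = 3) in the MS control, 5.64 ± 0.53 FPKM under ABA and 7.65 ± 0.175 FPKM under PEG. Of the 5 tested, 4 rose under ABA and 5 under PEG, and none fell. Their means lie under 5 FPKM. Of all genes tested below that level, 31.3% rose and 25.0% fell under ABA, and 42.7% rose and 20.5% fell under PEG. The part of the level in these rises was not tested. Of the 5 tested members, Manes.06G030900 (*CESA7*) passed the filter on low counts only through its ABA and PEG libraries, so the counts that include it are a description. Manes.16G042100 (*CESA8*) was at 1.26, 1.28 and 1.07 FPKM in the MS control, 1.61, 2.12 and 1.97 FPKM under ABA and 2.46, 2.75 and 2.57 FPKM under PEG. Every ABA library was above every MS control library and every PEG library above both, with log2 fold changes of 0.73 (standard error 0.14, adjusted p = 0.000599) and 0.98 (standard error 0.13, adjusted p = 3.53e-05). Manes.14G143300 (*CESA7*) was at 0.778, 1.03 and 0.754 FPKM in the MS control, 1.3, 1.59 and 1.43 FPKM under ABA and 1.9, 1.72 and 1.82 FPKM under PEG, and its rises of 0.82 and 0.95 were close in size. The *CESA4* matches Manes.13G038000 and Manes.12G035500 rose by 0.76 and 1.08 under ABA and by 1.14 and 1.21 under PEG.

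A second pair of *CESA7* matches lies side by side on chromosome 6. Manes.06G030900 had 13, 29 and 50 reads over the MS control, ABA and PEG libraries, and its PEG libraries, at 0.269, 0.549 and 0.0765 FPKM, spread across the range of both other groups. Its rise of 1.64 under PEG (adjusted p = 0.0348) did not pass without PEG replicate 2 (0.86, adjusted p = 0.198) or without any 1 of the 3 MS control libraries (1.45 to 1.87, adjusted p from 0.0566 to 0.0979). Its neighbour Manes.06G031000 had 10, 18 and 21 reads and was not tested. Between the treatments none of the 5 tested secondary wall members passed the test, with differences of 0.13 to 0.44 on the log2 scale and adjusted p from 0.0785 for Manes.13G038000 to 0.654 for Manes.12G035500. Of these, 3 became higher under PEG in an alternative. With no scaling beyond library size, Manes.13G038000 (0.57), Manes.14G143300 (0.33) and Manes.16G042100 (0.45) passed, and without ABA replicate 2 Manes.13G038000 (0.55) and Manes.16G042100 (0.34) did. Other markers of xylem and secondary walls did not move one way. Of 8 tested genes described as xylem proteases or secondary wall transcription factors, 4 rose and 4 fell under ABA, and 2 rose and 3 fell under PEG. All genes rose and fell in 32.9% and 33.4% under ABA, and in 35.6% and 35.1% under PEG. The 3 tested proteases, Manes.05G127000, Manes.03G097200 and Manes.15G113300, all rose under ABA (0.62, 0.85 and 0.76). Under PEG the first 2 rose (0.39 and 0.77) and the last did not pass (0.02). Of the tested genes described as transcription factors, Manes.01G144500 rose under ABA (1.80) and the others fell, by 0.49 to 0.59. Under PEG 3 of them fell and none rose. The summed level over the 14 genes of this list was 42.9 to 44.5 FPKM in the MS control, 47.1 to 47.6 FPKM under ABA and 44.5 to 46.4 FPKM under PEG. Manes.14G025600 held 15.8 FPKM of it in the MS control. It was listed by its description alone, and its nearest Arabidopsis gene, AT5G52380, was not checked to be such a factor.

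**Figure D2:**
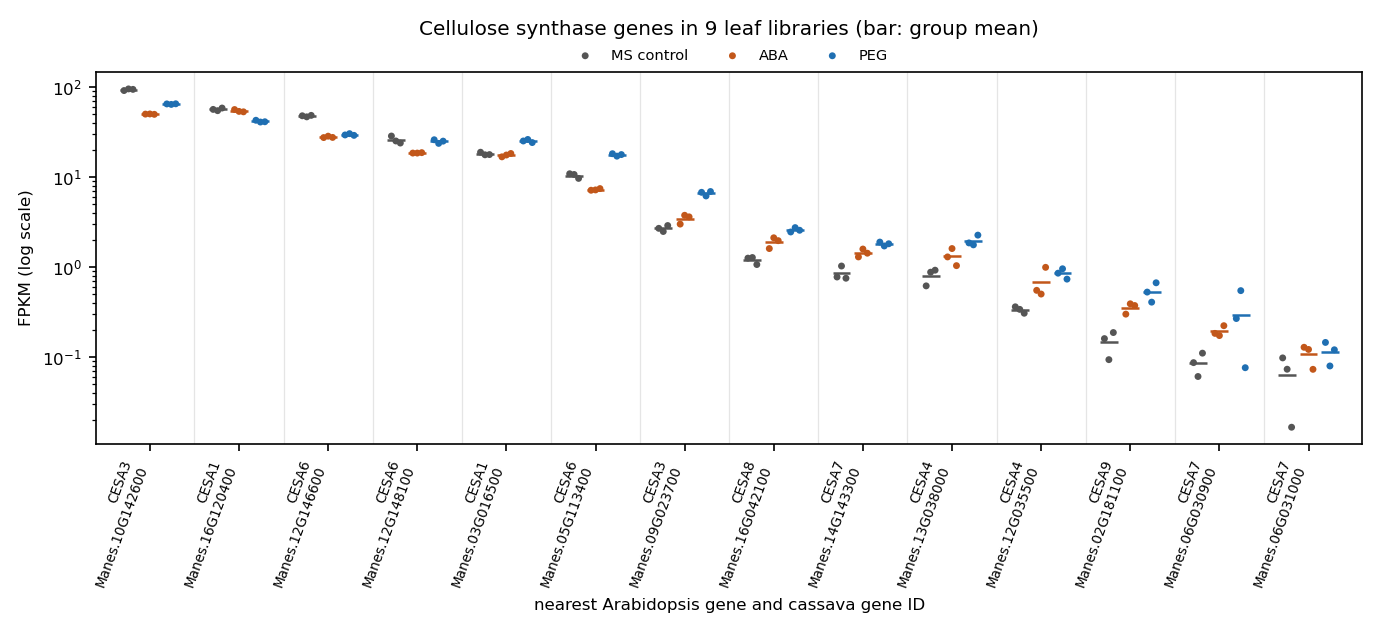
FPKM of the 14 CESA members in each library (points) with the group mean (bar) on a log scale. The primary wall matches span 0.094 to 95.4 FPKM and the secondary wall matches stay under 3 FPKM, with the PEG mean above the MS control mean in each of the latter.

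Cellulose synthase-like genes included some of the largest changes. Under ABA 6 of 18 tested rose and 10 fell, and under PEG 8 rose and 9 fell. The shares were 33.3% and 55.6% under ABA, beside 32.9% and 33.4% of all genes. They were 44.4% and 50.0% under PEG, beside 35.6% and 35.1%. Manes.05G000900 (*CSLD5*; chromosome 5, 96477 to 100783), whose Arabidopsis match acts in dividing cells, was at 0.317, 0.244 and 0.317 FPKM in the MS control, 1.89, 1.87 and 2.26 FPKM under ABA and 6.41, 7.1 and 6.47 FPKM under PEG. The groups were far apart, in the order MS control, ABA, PEG. Its mean FPKM was 6.86-fold higher under ABA and 22.8-fold higher under PEG, with log2 fold changes of 2.83 (standard error 0.15, adjusted p = 1.11e-08) and 4.36 (standard error 0.13, adjusted p = 8.96e-11). The summed level of the list taken by the word cyclin, given above, had the same order of groups, and its part in this result was not tested. The *CSLD3* matches went the other way. Manes.09G126800 was at 19.6, 18.9 and 20.4 FPKM in the MS control, 9.15, 9.59 and 10 FPKM under ABA and 8.28, 8.19 and 8.2 FPKM under PEG, falls of 0.97 and 1.39 on the log2 scale. In Arabidopsis *CSLD3* is needed for root hairs. Manes.08G066300 fell by 0.51 and 0.77, and its neighbour Manes.08G066500 did not pass the test under either treatment (-0.19 and -0.24).

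Both members matched to *CSLA2*, a mannan synthase in Arabidopsis, rose under both treatments. Manes.11G156200 was at 7.55, 7.57 and 7.76 FPKM in the MS control, at 10.3 FPKM in each of the 3 ABA libraries, and at 25.6, 24.4 and 23.8 FPKM under PEG. Its groups did not overlap, and its log2 fold changes were 0.50 under ABA (adjusted p = 2.47e-06) and 1.56 under PEG (adjusted p = 6.97e-11). Manes.04G009400 rose by 0.95 and 1.86. The 2 members matched to *CSLB4* and *CSLB5*, a group of which little is known, were abundant by FPKM and fell under both treatments. The FPKM of Manes.13G068600 (*CSLB5*) rests on a length of 579 bases. It had 2492 reads in the MS control, against 4960 for Manes.03G142400 (*CSLE1*) at a mean of 46.8 FPKM. Manes.13G068600 was at 93.4, 90.8 and 101 FPKM in the MS control, 74.4, 73.3 and 81.3 FPKM under ABA and 68.8, 62.8 and 67.0 FPKM under PEG. The falls were of 0.25 and 0.66 on the log2 scale for this gene, and of 0.19 and 0.69 for Manes.13G069300.

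The CSLE and CSLG matches lie in small arrays and neighbours moved in different directions. On chromosome 2, between 744079 and 763809, 4 *CSLG* matches stand in a row, of which 3 were tested. Manes.02G007500 was at 109, 107 and 110 FPKM in the MS control, 57.3, 57.0 and 59.4 FPKM under ABA and 59.5, 63.4 and 60.2 FPKM under PEG, and fell under both treatments. Its neighbour Manes.02G007300 was at 38.6, 35.4 and 39.7 FPKM in the MS control, 55.2, 54.0 and 55.1 FPKM under ABA and 8.35, 9.45 and 8.3 FPKM under PEG. It was thus highest in all ABA libraries and lowest in all PEG libraries, with log2 fold changes of 0.59 (standard error 0.05, adjusted p = 1.45e-06) and -2.25 (standard error 0.06, adjusted p = 2.09e-11). Between them lies Manes.02G007400, at 7.92, 7.19 and 7.21 FPKM in the MS control, 2.72, 2.96 and 3.2 FPKM under ABA and 12.5, 11.1 and 13.3 FPKM under PEG. This order is the reverse of that of Manes.02G007300, with log2 fold changes of -1.26 (adjusted p = 2.64e-07) under ABA and 0.59 (adjusted p = 5.65e-05) under PEG.

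On chromosome 3, Manes.03G167800 (*CSLG2*) was at 83.6, 82.5 and 83.7 FPKM in the MS control, 83.8, 88.6 and 85.1 FPKM under ABA and 36.1, 34.8 and 35.1 FPKM under PEG. It fell by 1.37 on the log2 scale under PEG (adjusted p = 6.17e-12), while its rise of 0.11 under ABA (adjusted p = 0.00736) was lost with no scaling beyond library size (0.04). Next to it, Manes.03G167900 (*CSLG3*) went from 23 reads over the MS control libraries to 135 under ABA and 133 under PEG, log2 fold changes of 2.59 and 2.23. The 3 *CSLE1* matches in a row on chromosome 3 all fell under ABA, by 0.53 to 0.70. Under PEG Manes.03G142200 (0.42) and Manes.03G142400 (0.15) rose and Manes.03G142500 (-0.79) fell. The sources used here do not say how reads matching several copies were counted, and in such an array part of a value may belong to a neighbour. The words of the rule pass over 7 hyphenated "Cellulose-synthase-like C" genes, a group that makes the glucan backbone of xyloglucan in Arabidopsis. All 7 fell under ABA, by 0.35 to 3.09 on the log2 scale, and 2 rose and 4 fell under PEG. Of all genes 33.4% fell under ABA, and 35.6% rose and 35.1% fell under PEG.

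Of the 7 tested COBRA members 4 fell under each treatment, none rose under ABA and 1 rose under PEG. Of all genes 32.9% rose and 33.4% fell under ABA, and 35.6% rose and 35.1% fell under PEG. The class sum was 75.7 ± 1.6 FPKM (SD, n = 3) in the MS control, 38.7 ± 0.792 FPKM under ABA and 53.6 ± 0.71 FPKM under PEG. Manes.06G082500, the *COBRA* match (chromosome 6, 19583692 to 19587097), held 65.0% of the class in the MS control. It was at 50.8, 48.7 and 48.2 FPKM in the MS control, 25.4, 28.2 and 27.1 FPKM under ABA and 38.7, 40.0 and 38.4 FPKM under PEG. The order of the groups, without overlap, was that of the leading *CESA3* match, with falls of 0.81 (standard error 0.04, adjusted p = 1.85e-08) and 0.47 (standard error 0.04, adjusted p = 1.68e-06) on the log2 scale. Manes.03G201100 (*COBL7*) was at 14.5, 14.9 and 16.0 FPKM in the MS control, 3.2, 3.29 and 3.13 FPKM under ABA and 5.91, 6.09 and 6.06 FPKM under PEG, falls of 2.17 and 1.46. The minor *COBL7* match Manes.15G007300 rose by 1.64 under PEG (adjusted p = 2.63e-05), from 0.311, 0.529 and 0.601 FPKM to 1.6, 1.61 and 1.81 FPKM, and did not pass under ABA (0.23, adjusted p = 0.454).

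Manes.07G021200 (*COBL6*) nearly vanished from the PEG libraries. It was at 2.87, 1.7 and 2.44 FPKM in the MS control, 1.45, 1.08 and 1.03 FPKM under ABA and 0.0907, 0 and 0.0485 FPKM under PEG. Over the libraries of a group this was 137, 70 and 3 reads, and the ratio of PEG to the MS control was 0.0181 (95% exact counting interval 0.00368 to 0.054, for counting error only). Its log2 fold changes were -0.91 under ABA (adjusted p = 0.0089) and -5.60 under PEG (adjusted p = 6.18e-07). Manes.02G058100 (*COBL1*) fell by 1.25 under PEG (adjusted p = 1.08e-05). Its fall of 0.41 under ABA (adjusted p = 0.0205) did not pass without MS control replicate 1 (-0.33), ABA replicate 2 (-0.36) or ABA replicate 3 (-0.32). *COBL4* acts with the secondary wall CESAs in Arabidopsis. Neither of the 2 tested *COBL4* matches passed the test against the MS control, with -0.15 and 0.27 for Manes.14G087800 under ABA and PEG and 0.07 and -0.57 for Manes.06G082400. With no scaling beyond library size Manes.14G087800 passed under PEG (0.40).

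Of the 19 tested FLA members, 4 rose and 8 fell under ABA, and 10 rose and 4 fell under PEG. All genes rose and fell in 32.9% and 33.4% under ABA, and in 35.6% and 35.1% under PEG. Compared directly, 15 FLA members (78.9%) were higher and 1 (5.26%) lower under PEG than under ABA, with a median log2 fold change of 1.27. For all genes these values were 39.1%, 35.6% and 0.05. Of these 15, Manes.11G143200 (*FLA11*), Manes.04G023300 (*FLA11*) and Manes.04G023000 (*FLA12*) passed the filter on low counts only through their PEG libraries, so the count and the median are a description. The summed level of the FLA class was 241 ± 8.44 FPKM (SD, n = 3) in the MS control, 139 ± 0.413 FPKM under ABA and 284 ± 3.6 FPKM under PEG. These sums lack the TMM scaling of the tests. The leading genes changed places. Manes.08G036500 (*FLA17*; chromosome 8, 3280040 to 3282578) was at 80.5, 77.5 and 75.4 FPKM in the MS control, 31.2, 31.8 and 29.3 FPKM under ABA and 50.7, 49.0 and 50.4 FPKM under PEG. It fell by 1.27 on the log2 scale under ABA (adjusted p = 1.19e-10) and by 0.77 under PEG (adjusted p = 6.9e-09), and its share of the FLA sum went from 32.3% to 22.1% and 17.6%. Manes.05G043800 (*FLA10*; chromosome 5, 3148974 to 3150248) was at 23.3, 26.6 and 24.8 FPKM in the MS control, 25.5, 23.6 and 24.1 FPKM under ABA and 67.4, 69.6 and 67.3 FPKM under PEG. The MS control and ABA libraries overlapped (0.03, adjusted p = 0.628) and the PEG libraries stood alone, with a rise of 1.32 (standard error 0.06, adjusted p = 1.6e-09) that made it the leading FLA gene under PEG at 24% of the sum.

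Manes.13G061700 (*FLA2*) was at 61.6, 53.4 and 59.1 FPKM in the MS control, 16.3, 16.6 and 19.2 FPKM under ABA and 22.4, 24.7 and 20.7 FPKM under PEG. Under ABA it fell by 1.68 (adjusted p = 7.64e-09) and under PEG by 1.49 (adjusted p = 1.4e-08) on the log2 scale. Another 4 FLA members fell under ABA and did not pass the test under PEG, which are Manes.12G060500, Manes.13G141200, Manes.04G034700 and Manes.04G023300. Manes.12G060500 (*FLA7*) was at 34.3, 32.9 and 30.1 FPKM in the MS control, 8.94, 10.1 and 8.83 FPKM under ABA and 36.2, 33.5 and 36.4 FPKM under PEG. It fell by 1.74 under ABA (adjusted p = 2.71e-09), and its PEG value of -0.01 (adjusted p = 0.941) was 0.13 with no scaling beyond library size. Manes.13G141200 (*FLA6*) fell from 3.25, 2.8 and 2.83 FPKM to 0.624, 0.369 and 0.933 FPKM under ABA and was at 3.29, 3.52 and 4.53 FPKM under PEG. The *SOS5* match Manes.04G034700 fell by 1.32 under ABA and had 0.31 under PEG (adjusted p = 0.242). The other *SOS5* match, Manes.11G130800, fell by 1.03 under ABA and rose by 0.27 under PEG (adjusted p = 0.044). The *FLA1* matches, in contrast, rose under both treatments. Manes.15G059800 was at 9.99, 8.65 and 9.86 FPKM in the MS control, 13.3, 14.2 and 13.5 FPKM under ABA and 27.3, 27.4 and 28.3 FPKM under PEG, with rises of 0.59 and 1.41, and Manes.03G141200 rose by 0.76 and 0.96. Manes.12G149900, matched to AT1G15190, was at 1.33, 0.996 and 1.21 FPKM in the MS control libraries, 0.333, 0.629 and 0.745 FPKM under ABA and 0.438, 0.289 and 0.545 FPKM under PEG. It passed the filter on low counts only through its MS control libraries. Its value was -1.59 under PEG (adjusted p = 0.00175) and -0.97 under ABA (adjusted p = 0.026), and the latter did not pass without MS control replicate 1 (-0.89), MS control replicate 3 (-0.95) or ABA replicate 1 (-0.71), or by the DESeq2 Wald test (-0.96).

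*FLA11* and *FLA12* matches formed the largest subset, 17 of the 40 FLA members, and most stand in tandem. Between 2467610 and 2492331 on chromosome 4 lie 7 of them, and between 25520306 and 25536590 on chromosome 11 lie 8. Apart from Manes.08G005900, which lies outside the arrays, they had few reads or none in the MS control and ABA libraries. Over the 3 libraries of a group the 17 genes together had 377 MS control reads, 295 ABA reads and 826 PEG reads. At least 1 read was found for 7 members in MS control libraries, for 9 under ABA and for 14 under PEG, and a read in every library for 5, 4 and 13. On chromosome 4 the summed level of the array was 1.76 to 2.84 FPKM in the MS control, 1.83 to 2.19 FPKM under ABA and 8.76 to 9.9 FPKM under PEG. On chromosome 11 it was 0.249 to 0.683 FPKM, 0.173 to 0.812 FPKM and 4.22 to 4.94 FPKM. In both arrays every PEG library exceeded every library of the other groups, by more than the difference in total counts. Reads shared between these neighbours cannot be assigned from the deposited values, which makes the values of single array genes uncertain.

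The best covered gene of the first array, Manes.04G022900 (*FLA11*), was at 1.55, 1.09 and 0.989 FPKM in the MS control, 1.45, 1.72 and 1.36 FPKM under ABA and 4.86, 4.89 and 5.71 FPKM under PEG. Its PEG libraries stood apart and the other groups overlapped, with log2 fold changes of 0.40 (adjusted p = 0.229) under ABA and 1.96 (standard error 0.20, adjusted p = 4.22e-06) under PEG. Manes.04G023000 (*FLA12*), beside it, had 1 read in MS control libraries, 3 reads under ABA and 48 reads under PEG, a ratio of PEG to the MS control of 39.6 (95% exact counting interval 6.78 to 1600). Manes.11G143200 (*FLA11*) had no read in the 6 MS control and ABA libraries and 1.32, 1.38 and 1.33 FPKM, 54 reads in all, under PEG. With 3 counts over a group as the floor, its ratio of PEG to the MS control was 16.3. The PEG reads were taken as exact and scaled by total counts alone, so such ratios are not lower bounds. By the same floor the ratio was 10.3 for Manes.11G143600, 9.66 for Manes.11G143500, 8.76 for Manes.04G023400 and 5.43 for Manes.11G143300. None of the latter had enough reads for the test. Of the 6 members tested, Manes.11G143200, Manes.04G023000 and Manes.04G023300 passed the filter on low counts only through their PEG libraries. Manes.04G023300 was at 1.29, 1.27 and 0.643 FPKM in the MS control, 0.567, 0.403 and 0.141 FPKM under ABA and 0.933, 1.17 and 1.73 FPKM under PEG, and its fall of 1.42 under ABA (adjusted p = 0.021) did not pass without MS control replicate 1 (-1.28), MS control replicate 2 (-1.27) or ABA replicate 3 (-1.05).

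The member outside the arrays with most reads, Manes.08G005900 on chromosome 8, was at 6.69, 5.59 and 4.96 FPKM in the MS control, 4.86, 3.64 and 3.76 FPKM under ABA and 5.39, 1.11 and 5.37 FPKM under PEG. PEG replicate 2 lay far below the other PEG libraries, and neither comparison passed (-0.42 and -0.67, adjusted p = 0.35 and 0.134).

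**Figure D3:**
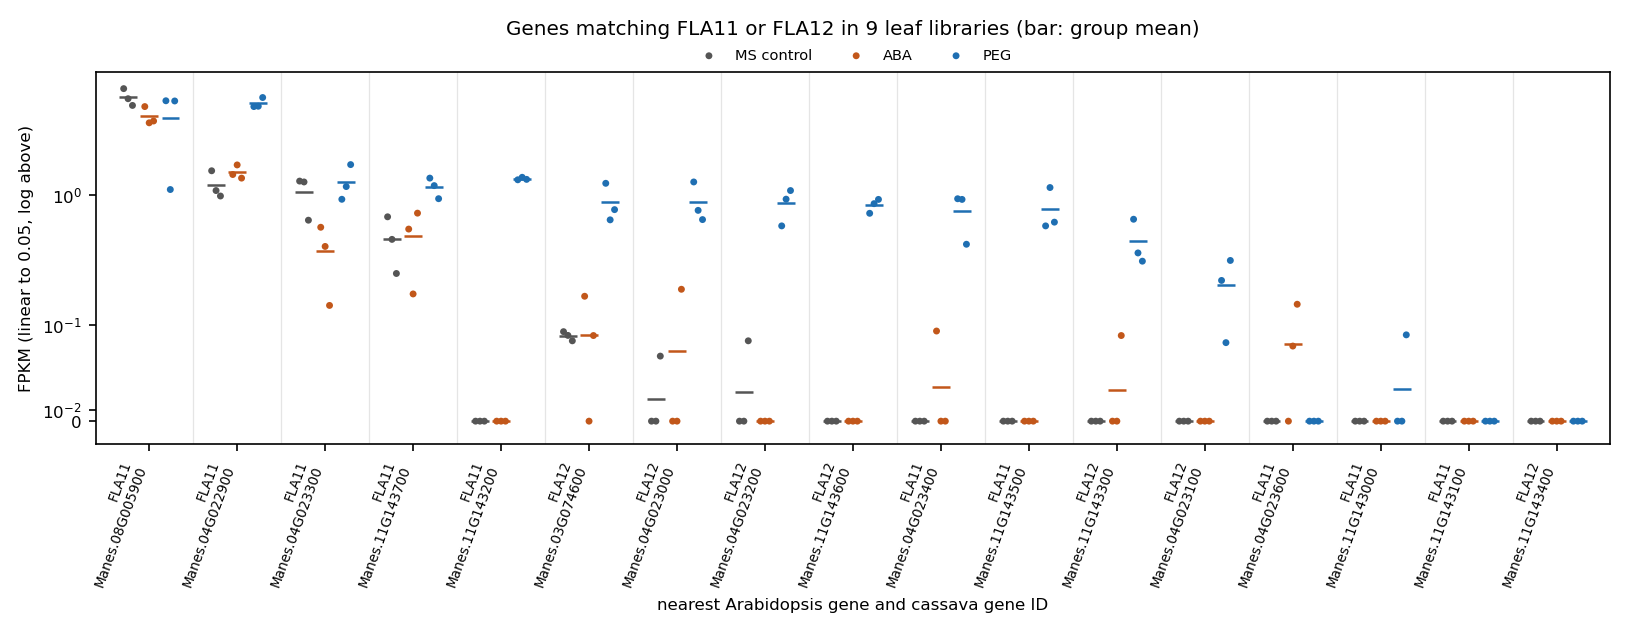
FPKM of the *FLA11* and *FLA12* matches in each library (points) with the group mean (bar). Many array genes are at 0 in the MS control and ABA libraries and above it under PEG, up to 5.71 FPKM for Manes.04G022900, while Manes.04G023600 has reads under ABA alone.

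Among the other arabinogalactan proteins, of which 17 were tested, 5 rose and 7 fell under ABA, and 6 rose and 5 fell under PEG. The shares were 29.4% and 41.2% under ABA, beside 32.9% and 33.4% of all genes. Under PEG, 35.3% and 29.4% stood near the 35.6% and 35.1% of all genes. This class holds the most abundant members by FPKM, and by this measure the lead passed from one to the other. The FPKM of Manes.05G202900 (*AGP14*) rests on a length of 180 bases, against 822 for Manes.07G035500 (*AGP1*). By reads, Manes.07G035500 had more in the MS control, 5547 against 2127, and under ABA, 9649 against 912. Under PEG it had 2303 against 2720. Manes.05G202900 (*AGP14*; chromosome 5, 27648041 to 27648220) was at 259, 267 and 258 FPKM in the MS control, 107, 108 and 120 FPKM under ABA and 304, 298 and 307 FPKM under PEG. The ABA libraries were far below the others, with a fall of 1.17 on the log2 scale (SE 0.05, adjusted p = 3e-09). Its PEG libraries, though all above the MS control, did not pass (0.08, adjusted p = 0.174), and did pass with no scaling beyond library size (0.21) and over genes of at least 5 FPKM (0.15). Manes.07G035500 (*AGP1*; chromosome 7, 3399795 to 3400616) had the opposite order, at 151, 152 and 146 FPKM in the MS control, 244, 268 and 263 FPKM under ABA and 51.1, 57.0 and 60.6 FPKM under PEG. It rose by 0.85 under ABA (standard error 0.06, adjusted p = 9.69e-08) and fell by 1.54 under PEG (standard error 0.06, adjusted p = 5.63e-10). Under ABA it made up 47.7 ± 1.25% (SD, n = 3) of the FPKM of these arabinogalactan proteins, against 21.6 ± 0.441% in the MS control. Its neighbour Manes.07G035600, at 3.86, 4.77 and 4.86 FPKM in the MS control, moved likewise, by 0.99 and -0.82, and shares the uncertainty of reads between copies.

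Manes.09G140700 (*AGP12*) was at 71.8, 67.5 and 81.4 FPKM in the MS control, 14.2, 13.9 and 15.4 FPKM under ABA and 48.4, 56.7 and 53.7 FPKM under PEG. It fell by 2.28 under ABA (log2; SE 0.09, adjusted p = 1.17e-09) and by 0.61 under PEG. Manes.03G019400 (*AGP16*) was at 11, 24.1 and 19.7 FPKM in the MS control, 4.83, 6.21 and 4.82 FPKM under ABA and 56.4, 57.9 and 57.3 FPKM under PEG. The MS control libraries were spread widely but did not reach either treatment, and the log2 fold changes were -1.73 (adjusted p = 0.000191) and 1.5 (adjusted p = 2.73e-05). Manes.05G068100 (*AGP26*), at 18.5, 18.3 and 17.9 FPKM in the MS control, also fell under ABA (-0.75) and rose under PEG (1.01). Manes.02G013300 (*AGP20*) was at 5.76, 8.08 and 5.14 FPKM in the MS control, 29.3, 28.7 and 28 FPKM under ABA and 24.4, 23.9 and 22.5 FPKM under PEG, a rise of 2.24 under ABA and 1.77 under PEG. The other *AGP20* matches, Manes.01G249100 and Manes.05G026100, rose under PEG, by 1.93 and 1.70, and did not pass under ABA (0.49 and -0.39). Of the *AGP18* matches, lysine-rich arabinogalactan proteins, Manes.12G113000 fell under both treatments (-0.88 and -0.94). Manes.13G115000 fell under ABA (-0.72) and had 0.09 under PEG (adjusted p = 0.165), and Manes.10G073000 rose under ABA (1.19) and had 0.25 under PEG (adjusted p = 0.26). Manes.14G095400 (*AGP19*) was at 1.0, 0.938 and 0.766 FPKM in the MS control libraries, 2.82, 1.33 and 2.34 FPKM under ABA and 1.73, 1.55 and 1.67 FPKM under PEG. It rose under ABA (1.32, adjusted p = 0.00296) and had 0.74 under PEG (adjusted p = 0.0603). Manes.10G103600 (*AGP1*) was at 2.51, 2.66 and 1.28 FPKM in the MS control libraries, 3.14, 2.67 and 1.88 FPKM under ABA and 0.413, 0.818 and 0.588 FPKM under PEG. It passed the filter on low counts only through its ABA libraries, and it fell under PEG (-1.90, adjusted p = 0.00193) and had 0.33 under ABA (adjusted p = 0.39).

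**Figure D4:**
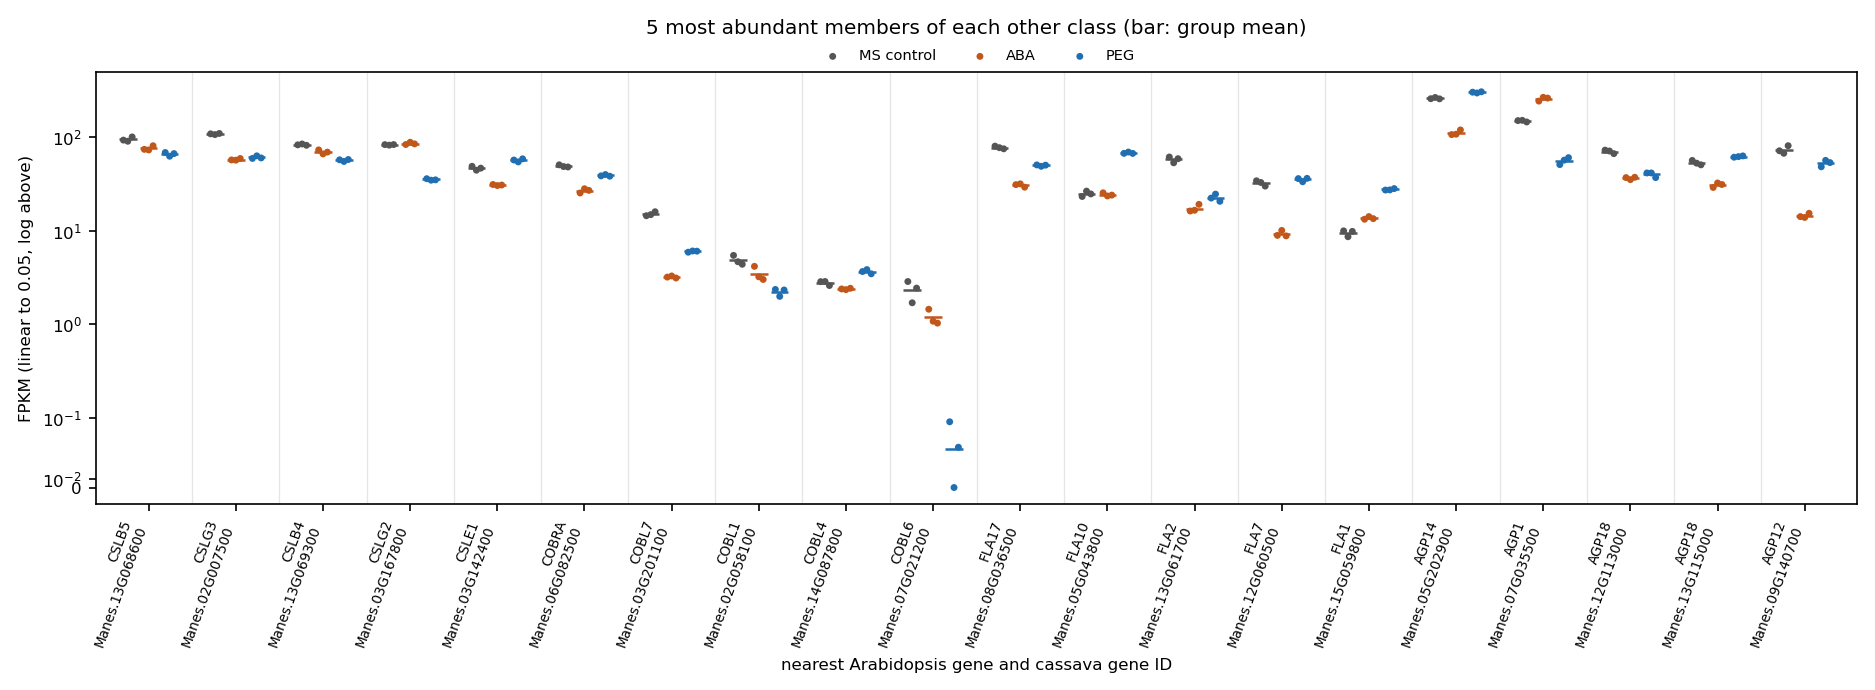
FPKM in each library (points) and group means (bars) of the 5 most abundant members of each class other than CESA. The axis is linear up to 0.05 FPKM and logarithmic above, so that the PEG library without a read of Manes.07G021200 (*COBL6*) can be shown at 0. The reversed order of *AGP14* and *AGP1* under ABA and PEG is seen near the top of the range.

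Cassava often has several copies near the same Arabidopsis gene, and these did not always move together. For 20 Arabidopsis genes 2 or more cassava copies were tested. Copies of the same gene passed the test in opposite directions for 5 of the 20 under ABA, for 7 under PEG and for 5 between PEG and ABA. Such splits were not counted over all genes of the table, so these counts are a description. Of all genes 32.9% rose and 33.4% fell under ABA, and 35.6% rose and 35.1% fell under PEG. In all 5 cases under ABA the copy with the highest mean FPKM fell while another rose, and so it was for 6 of the 7 under PEG, the other being *CSLE1*. The pair of *FLA17* is a clear case. Against the falls of Manes.08G036500 given above, Manes.09G042500 rose from 7.13, 5.97 and 6.53 FPKM in the MS control to 14.2, 15.1 and 14.9 FPKM under ABA and 23.9, 21.9 and 21.7 FPKM under PEG. No groups overlapped, and its log2 fold changes were 1.24 (adjusted p = 2.27e-08) and 1.65 (adjusted p = 1.2e-09). The *CESA3* pair was likewise split under both treatments, with the abundant copy lower and the minor copy higher. The *CESA1* pair and the copies of *CESA6* and *COBL7* were split under PEG.

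The *FLA7* pair was split under ABA, where the fall of Manes.12G060500 stood beside a rise of 0.47 for Manes.S074300 (adjusted p = 0.0232). That rise did not pass without MS control replicate 2 (0.33), without ABA replicate 3 (0.40) or with the Wald test of DESeq2 (0.49, adjusted p = 0.0732), while the same copy rose by 1.74 under PEG (adjusted p = 4.32e-07). Abundant and minor copies also differ in the level that went with direction across all genes above, and its part in the splits was not tested.

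**Figure D5:**
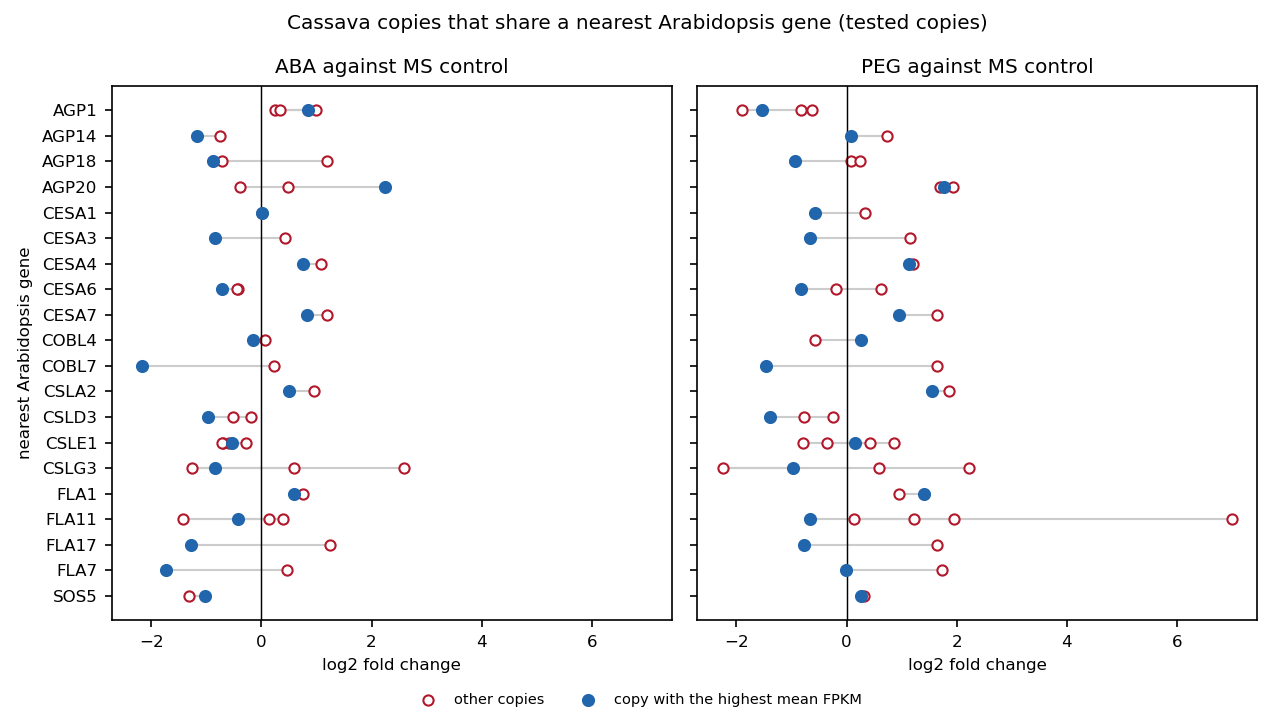
Log2 fold changes under ABA and PEG of the tested cassava copies that share a nearest Arabidopsis gene, 1 row per Arabidopsis gene. Filled points are the copy with the highest mean FPKM and open points the others. For *FLA17* the 2 copies lie at -1.27 and 1.24 under ABA and at -0.77 and 1.65 under PEG, and the point at 6.99 is Manes.11G143200, which had no read in the MS control and is left out of the ABA panel.

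The treatments agreed for some members and not for others. As both were compared with the same MS control libraries, and the joint shares of all genes were not counted, the counts are a description. They do not show if the agreement is particular to the members. Under both ABA and PEG 15 members rose and 19 fell, 4 rose under ABA and fell under PEG, and 8 fell under ABA and rose under PEG. The 4 that rose under ABA and fell under PEG were Manes.02G007300, Manes.03G167800, Manes.07G035500 and Manes.07G035600, chosen for naming after their values were seen. Among 13 tested CESA members 6 rose under both and 3 fell under both, and among 7 COBRA members 4 fell under both. Compared directly, Manes.11G143200 of the *FLA11* array had a ratio of PEG to ABA of 16.4 by the floor of 3 counts, not a lower bound. Manes.03G019400 (*AGP16*) was higher under PEG than under ABA by 3.22 on the log2 scale (SE 0.24, adjusted p = 1.6e-07). In the other direction, Manes.02G007300 (*CSLG3*) was lower under PEG than under ABA, with -2.85 (adjusted p = 1.18e-12), and Manes.07G035500 (*AGP1*) with -2.39 (adjusted p = 6.24e-12).

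Other genes of the wall moved as follows. Of 14 tested endoglucanases of glycosyl hydrolase family 9, the family of KORRIGAN, which works with cellulose synthases, 11 rose and 1 fell under ABA, and 10 rose and 4 fell under PEG. Of 13 callose synthases, which make the other large glucan at the plasma membrane, 9 rose and 1 fell under ABA and 8 rose and 4 fell under PEG. Of 7 sucrose synthases, which can supply UDP-glucose for cellulose, 5 rose and 1 fell under ABA and 3 rose and 3 fell under PEG. Genes for xylan synthesis and wall acetylation rose in 13 and fell in 8 of 32 under ABA, and rose in 12 and fell in 9 under PEG. For lignin synthesis 15 of 40 rose and 12 fell under ABA, and 13 rose and 14 fell under PEG. Galactosyltransferases, some of which build the glycans of AGPs, rose in 11 and fell in 1 of 23 under ABA, and rose in 10 and fell in 5 under PEG. Of 120 genes with extensin or proline-rich in their descriptions, which include late embryogenesis abundant hydroxyproline-rich glycoproteins and extensin-like receptor kinases besides wall proteins, 30 rose and 46 fell under ABA, and 33 rose and 61 fell under PEG. These counts stand beside the 32.9% and 33.4% of all genes that rose and fell under ABA and the 35.6% and 35.1% under PEG.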

How the data were processed

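Per the file headers, the deposited table holds a raw read count per gene and an FPKM value in which the authors scaled the counts by gene length and library size, for each of 9 libraries. HISAT2 2.0.4 and StringTie 1.3.0 are listed in the processing notes of the submitters, without their roles. The sources used here do not give the counting tool, its strand setting or its treatment of shared reads. Gene positions are those of the table, whose gene IDs have the form of cassava genome v6.1, the genome the study used. The counts went into edgeR 4.0.16 under R 4.3.3 (filterByExpr, TMM scaling, 1 quasi-likelihood fit of the 9 libraries, Benjamini-Hochberg adjustment over 23984 genes, threshold 0.05), which was also tested on simulated data. Total counts of 13923803 to 17108746 per library set the precision. Exact Clopper-Pearson intervals cover counting error only. The floor of 3 counts stands in for a group without reads. The reads of the other group were taken as exact and scaled by total counts alone, so ratios by this floor are not lower bounds.

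The members and lists were chosen with earlier results of these data known. Named members are all CESA genes, the 5 most abundant of each other class, and in each comparison the 8 largest rises and 8 largest falls that passed the test without overlap and with a mean of at least 1 FPKM in a group. Copies of the same nearest Arabidopsis gene, array neighbours and the *FLA11* and *FLA12* matches were named after their values were seen. Pathway and marker lists were taken by words in the descriptions. Of the marker lists, 17 genes for phloem proteins (15 tested, 3 higher and 6 lower under ABA, 6 higher and 4 lower under PEG), 7 for roots (3 tested, 3 higher under ABA, none changed under PEG) and 6 for guard cells (1 tested, lower under both) were also counted. Alternatives were other scalings (DESeq2 size factors, or library size only), other filters on low counts, a replicate block, the Wald test in DESeq2 1.42.0, a fit of the compared groups alone, a fold of at least 2, and leaving out each library. No sequences were used here.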

Additional observations from a re-analysis of the deposited data

How the results depend on the processing

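Without each of the 9 libraries in turn, 20 to 22 members were higher and 30 to 34 lower under ABA, 30 to 38 higher and 25 to 27 lower under PEG, and 39 to 44 higher and 16 to 18 lower under PEG than under ABA. Over genes with a mean of at least 5 FPKM, which tests fewer members, 9 were higher and 26 lower under ABA, 16 higher and 20 lower under PEG, and 24 higher and 9 lower under PEG than under ABA, and the median of the members under PEG turned from 0.26 to -0.39. With a fold of at least 2, the counts were 8 and 12 under ABA, 23 and 10 under PEG, and 25 and 6 for PEG against ABA. With no scaling beyond library size the median of all genes shifted to -0.07, 0.14 and 0.24 in the 3 comparisons, and the sign turned for Manes.03G016500 (-0.04), Manes.05G043800 (-0.03) and Manes.16G120400 (-0.06) under ABA, Manes.12G060500 (0.13, and 0.07 over genes of at least 5 FPKM) under PEG, and Manes.02G007500 (0.08), Manes.12G113000 (0.13) and Manes.12G146600 (0.09) for PEG against ABA. Leaving out single libraries turned the sign of small values, which ranged from -0.01 to 0.05 for Manes.03G016500, -0.02 to 0.08 for Manes.05G043800 and -0.02 to 0.03 for Manes.16G120400 under ABA, -0.14 to 0.32 for Manes.04G023300 and -0.06 to 0.03 for Manes.12G060500 under PEG, and -0.34 to 0.88 for Manes.06G030900 and -0.06 to 0.49 for Manes.12G035500 for PEG against ABA. The cause was not tested. Replicate numbers did not pair the libraries (correlations of same-numbered libraries -0.040 to 0.062), and with the replicate block 21 members were higher and 33 lower under ABA, 32 and 26 under PEG and 40 and 17 for PEG against ABA. The filter on low counts limited the test to 74 of the 112 members.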

Other observations

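A few members varied widely between libraries of the same group. Manes.10G103700 (*AGP1*) was at 3.29, 17.3 and 15.9 FPKM in the MS control, 15.2, 13.6 and 13.1 FPKM under ABA and 2.18, 11.4 and 12.8 FPKM under PEG, so that replicate 1 was low in the MS control and PEG groups. Manes.08G144900 (*AGP14*) was at 5.95, 5.05 and 0.656 FPKM in the MS control and 1.36, 8.7 and 10.8 FPKM under PEG, against 2.07, 2.05 and 2.26 FPKM under ABA. Neither gene passed the test in any comparison.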
